A study of Mus musculus with 12 samples.

Results

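The 10 genes described here encode ligands, secreted antagonists, inhibitory SMADs and ID targets of the bone morphogenetic protein (BMP) pathway. They are the ligands Bmp2, Bmp4 and Bmp6, the antagonists Grem1 and Nog, the inhibitory SMADs Smad6 and Smad7, and the ID genes Id1, Id2 and Id3. They were taken by symbol from a count table of 37310 mouse genes, where all 10 were found, and all 10 were among the 16630 genes that passed the filter on low counts. The genes were chosen by their role in the pathway with results of these libraries known, among them the lower level of Bmp2 in the knockout line. No test given here is therefore independent of the choice of genes, and the values describe these libraries.

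The libraries come from 2 mouse lines derived from embryonic fibroblasts (MEF), from which total RNA was sequenced after removal of ribosomal RNA. One line is labelled as a knockout of Cbx3, the gene for the chromatin protein HP1γ, and is called KO. The other is labelled as recomplemented for HP1γ and is called HPg. The 4 groups were KO cells with 100 nM of the phorbol ester PMA for 30 min, KO cells without PMA, HPg cells with the same PMA treatment, and HPg cells without PMA, with 3 libraries each. Library totals were 111458145 to 136187037 counts in KO and 114769449 to 159929347 counts in HPg cells. PMA, an activator of protein kinase C, was added in DMSO, and the labels used here do not say what untreated cells received. Each genotype is 1 line, so genotype and line cannot be told apart, and p-values measure the spread between replicate libraries of these lines. The series compares the 2 lines under normal growth and under PMA.

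BMPs are secreted ligands of the TGF-beta family that bring together type I and type II receptor kinases, which then phosphorylate SMAD1, SMAD5 and SMAD9. These bind SMAD4, enter the nucleus and switch on targets, of which the ID genes are the best known. ID proteins lack a DNA-binding region and hold E proteins away from DNA, while noggin and gremlin trap ligands outside the cell and SMAD6 and SMAD7 block the signal inside it.

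Total counts per library ranged from 111458145 to 159929347. Cbx3 itself had 31.8 ± 4.37 CPM in KO and 38.6 ± 4.66 CPM in HPg cells with PMA, and 36.5 ± 2.20 CPM in KO and 38.7 ± 2.45 CPM in HPg cells without it (SD, n = 3 each). It was not called in either comparison, so whole-gene counts did not check the genotype, and KO means the knockout label throughout. CPM are counts relative to library totals that were scaled with TMM factors. PMA raised the immediate-early genes Fos and Egr1 in both lines, by 6.81 and 5.5 in KO cells and by 6.10 and 5.45 in HPg cells on the log2 scale (edgeR quasi-likelihood test, adjusted p of at most 9.33e-05 for each). Of 10 fibroblast markers 9 passed the filter, with a summed level of 8482 to 13990 CPM over all libraries. The markers were uneven, with Col1a1 at 2887 to 7338, Col1a2 at 6.32 to 18.8 and Dcn at 1.71 to 15.9 CPM. Lum reached at most 0.409 CPM and Thy1, which did not pass, at most 0.0377 CPM. Cartilage and bone markers summed to 35.4 to 41.3 CPM in KO and 15.1 to 22.9 CPM in HPg cells with PMA, and to 35.0 to 42.8 CPM in KO and 17.9 to 33.1 CPM in HPg cells without PMA. Col2a1 made up most of these sums, and 4 of the 6 markers passed the filter, while the bone genes Ibsp and Bglap stayed at or under 0.0711 CPM. Sums of 5 epithelial markers, mainly Cdh1 and Krt19, were 9.61 to 13.2 CPM in KO and 7.66 to 8.01 CPM in HPg cells with PMA, and 9.50 to 13.7 CPM in KO and 8.34 to 10.7 CPM in HPg cells without it. Muscle markers, of which only Des passed the filter and Myod1 was at 0 throughout, summed to at most 1.35 CPM in KO and 0.897 CPM in HPg cells. Col2a1 and Des were called higher in KO than in HPg cells with PMA, by 1.16 (SE 0.26, edgeR adjusted p = 0.0388) and 1.76 (SE 0.38, adjusted p = 0.0328) on the log2 scale. Endothelial markers, of which 3 of 5 passed the filter, summed to 3.12 to 5.30 CPM in KO PMA, 2.17 to 6.76 in KO, 2.05 to 7.64 in HPg PMA and 1.94 to 8.82 CPM in HPg cells. Blood and immune markers, of which only Cd68 of 5 passed, summed to 2.03 to 3.18 CPM in KO PMA against 1.25 to 1.57 CPM in KO cells, and to 1.98 to 2.60 CPM in HPg PMA against 1.15 to 1.47 CPM in HPg cells, without overlap in either line. Cd68 was not called (edgeR adjusted p = 0.0644 in KO and 0.0913 in HPg cells), but was called higher with PMA in both lines with the replicate block (0.0213 and 0.0285). The part of these cell-type markers in the values of the 10 genes was not tested. Libraries share replicate numbers across the groups, and libraries with the same number deviated together, so ratios within a number are called pairs below.

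The 10 genes ran from abundant to barely detected transcripts. Per kilobase of exon, Id3 was highest, with 160 ± 35.6 CPM per kb in KO PMA, 139 ± 14.7 in KO, 177 ± 21.2 in HPg PMA and 172 ± 3.40 in HPg cells (SD, n = 3 each). Without PMA it ranked 214 of 15764 genes in KO and 179 of 15764 in HPg cells. Id1 followed with 127 ± 30.4 CPM per kb in KO PMA, 55.9 ± 13.4 in KO, 132 ± 57.1 in HPg PMA and 68.7 ± 17.3 in HPg cells. Its libraries lay below those of Id3 without PMA and overlapped them with PMA, in both lines. Smad6 stood next at 48.2 ± 20.03 in untreated KO and 49.9 ± 24.2 in untreated HPg cells, and its libraries overlapped those of Id1 in both lines. Id2, Smad7 and Bmp4 formed a middle group in untreated cells, at 14.2 ± 2.33, 12.5 ± 2.03 and 10.9 ± 3.90 CPM per kb in KO and 14.97 ± 2.80, 12.6 ± 2.18 and 9.81 ± 3.10 in HPg cells, and these neighbours did not differ beyond their spread. Bmp2 came below them at 0.628 ± 0.0753 CPM per kb in untreated KO and 2.75 ± 0.732 in untreated HPg cells. The antagonists were low, with Nog at 0.242 ± 0.0423 and Grem1 at 0.143 ± 0.0569 CPM per kb in untreated KO cells, and Nog at 0.0909 ± 0.105 and Grem1 at 0.156 ± 0.0595 in untreated HPg cells. Bmp6 was lowest at 0.0495 ± 0.0194 CPM per kb in untreated KO and 0.0110 ± 0.00567 in untreated HPg cells, and in HPg cells its libraries fell within the range of Nog. In bulk RNA, fewer cells of a kind and less RNA per cell cannot be told apart.

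**Figure D1:**
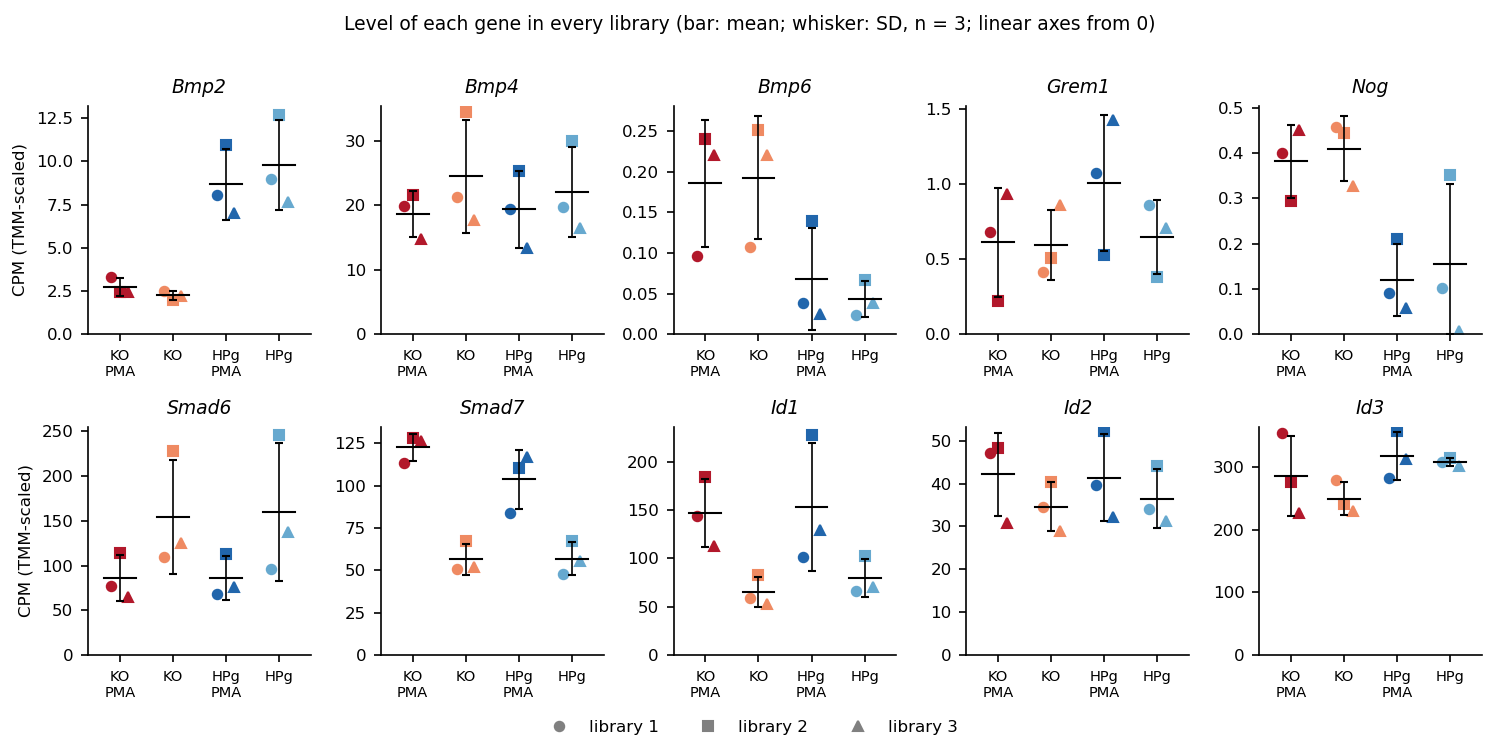
Level of each of the 10 genes in every library, in TMM-scaled CPM on linear axes that start at 0, for KO PMA, KO, HPg PMA and HPg cells. Symbols mark the replicate number, the horizontal bar is the mean and the whisker the SD (n = 3). Bmp2 stands lower in both KO groups than in both HPg groups, and Smad7 stands higher with PMA in both lines. Id1 stands higher with PMA in KO cells, and in HPg cells its mean is higher with PMA but the groups overlap.

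Bmp2, on chromosome 2, was the one of the 3 ligands that was called between the lines. It had 3.32, 2.41 and 2.43 CPM in KO PMA and 8.03, 10.97 and 7.03 CPM in HPg PMA libraries 1, 2 and 3. Without PMA it had 2.51, 1.97 and 2.21 CPM in KO and 9.002, 12.7 and 7.67 CPM in HPg libraries. Every KO library lay below every HPg library, with and without PMA. Within pairs the KO level was 0.220 to 0.413 times the HPg level with PMA and 0.156 to 0.288 times without it. In the edgeR quasi-likelihood test the log2 fold change of KO against HPg was -1.68 with PMA (SE 0.24, adjusted p = 0.00555) and -2.13 without it (SE 0.24, adjusted p = 0.00168), with p-values adjusted over all 16630 genes by Benjamini-Hochberg. Bmp2 was called under all 24 other settings in both comparisons, with log2 fold changes of -1.85 to -1.39 with PMA and -2.29 to -1.82 without it. The median log2 fold change of the 1374 tested genes of chromosome 2 was -0.14 with PMA and -0.15 without it. Bmp2 was the only one of the 10 genes called between the lines, in a comparison where 1.32% of all tested genes were called without PMA and 2.47% with PMA. This difference was known when the genes were chosen and is given as a description.

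PMA itself left Bmp2 uncalled in both lines. Its level was 1.10 to 1.32 times the untreated level in the 3 KO pairs and 0.864 to 0.916 times in the 3 HPg pairs, so all KO pairs stood above 1 and all HPg pairs below. The difference of the log2 responses, KO minus HPg, was 0.46 (SE 0.33), with an adjusted p of 1 in the edgeR quasi-likelihood test.

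Bmp4, on chromosome 14, was not called between the lines. Its values in libraries 1, 2 and 3 were 19.8, 21.5 and 14.7 CPM in KO PMA, 21.3, 34.4 and 17.8 CPM in KO, 19.4, 25.3 and 13.4 CPM in HPg PMA, and 19.8, 29.9 and 16.5 CPM in HPg cells. The groups overlapped in every comparison, and library 2 was the highest of each group. PMA levels were below untreated levels in all 6 pairs, at 0.626 to 0.934 times in KO and 0.811 to 0.983 times in HPg cells, and neither line passed the test (edgeR adjusted p = 0.616 in KO and 0.822 in HPg cells). An exon of the gene overlaps one of Gm15217 on the other strand, and no source used here gives the strand setting of the counts.

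Bmp6, on chromosome 13, was close to the limit of detection, with 3 to 35 counts per library. It had 11, 32 and 24 counts in KO PMA against 6, 22 and 3 counts in HPg PMA libraries, and 12, 35 and 31 counts in KO against 3, 8 and 5 counts in HPg libraries without PMA. Untreated KO libraries were all above the HPg libraries, while the PMA groups overlapped. KO against HPg without PMA gave a log2 fold change of 2.16 (SE 0.72, edgeR adjusted p = 0.184), and 2.19 with adjusted p = 0.0289 when the replicate number entered the fit as a block, where 12.5% of all genes were called. An exon of Bmp6 overlaps Txndc5 on the other strand.

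**Figure D2:**
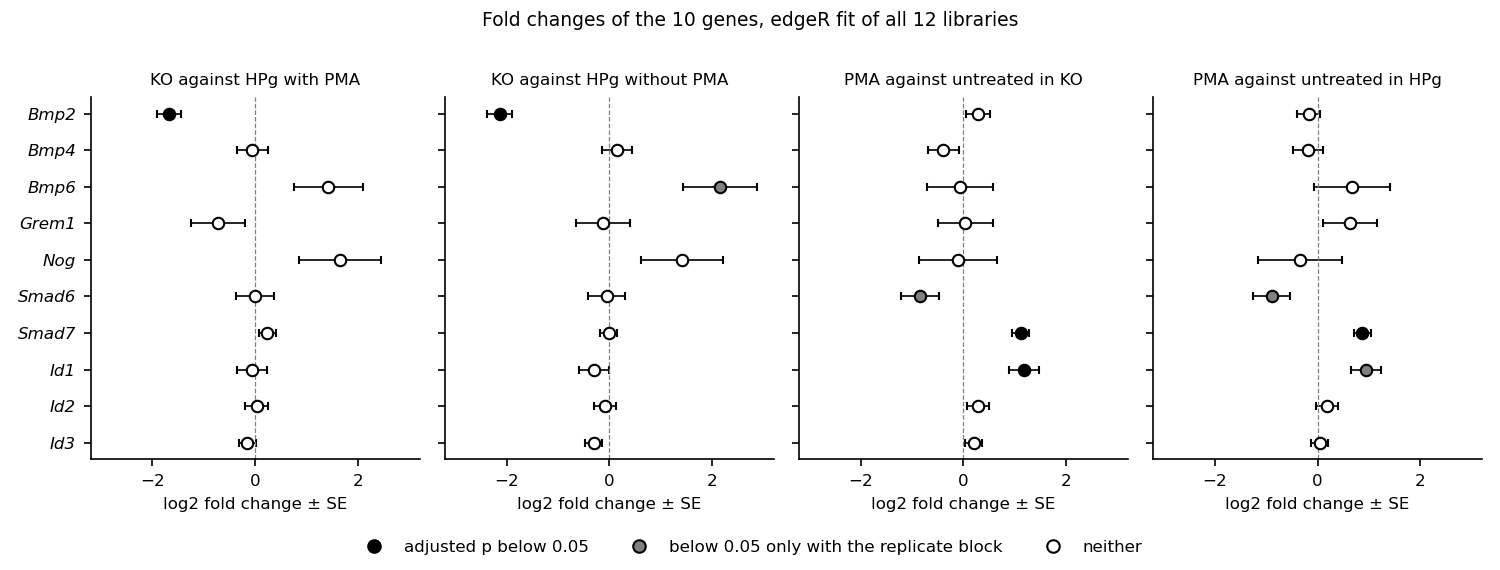
Log2 fold change (point) and standard error (whisker) of the 10 genes in each of 4 comparisons, from the edgeR fit of all 12 libraries. Black points passed an adjusted p of 0.05, grey points passed it only with the replicate number as a block, and white points passed neither. Bmp2 is the black point in both comparisons of lines, Smad7 is black for PMA in both lines, and Id1 is black for PMA in KO cells.

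Of the secreted antagonists, neither was called in any comparison. Nog, which encodes noggin and lies on chromosome 11, had 1 to 62 counts per library. Its libraries 1, 2 and 3 had 46, 39 and 49 counts in KO PMA against 14, 33 and 7 in HPg PMA cells, and 51, 62 and 46 in KO against 13, 42 and 1 in HPg cells without PMA. In CPM all KO PMA libraries were above all HPg PMA libraries, whereas without PMA the groups overlapped because HPg library 2, at 0.352 CPM, exceeded KO library 3, at 0.327 CPM. The log2 fold change of KO against HPg was 1.66 with PMA (SE 0.80, edgeR adjusted p = 0.293) and 1.42 without it (SE 0.79, adjusted p = 0.459). Without the 4 libraries numbered 2, a setting added after the values were seen, these became 2.49 (adjusted p = 0.0424) and 2.82 (adjusted p = 0.0496). Grem1, which encodes gremlin 1 and lies on chromosome 2, had 0.219 to 1.43 CPM in all libraries, from 29 to 175 counts. Its groups overlapped in all 4 comparisons. Its log2 fold change of KO against HPg was -0.72 with PMA (SE 0.53, edgeR adjusted p = 0.514) and -0.12 without it (SE 0.53, adjusted p = 0.954).

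Counting genes whose libraries did not overlap, KO and HPg cells were apart without PMA for 3 of the 10 genes, Bmp2 and Id3 lower and Bmp6 higher in KO, where 18.5% of all tested genes were apart. With PMA they were apart for 2 of the 10, Bmp2 lower and Nog higher in KO, where 25% were apart. The median log2 fold change of KO against HPg over the 10 genes was -0.03 with PMA and -0.06 without it, against 0.01 over all 16630 genes in both conditions.

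The 2 inhibitory SMADs changed in opposite directions with PMA, though Smad6 did not pass the unpaired test. Smad7, which blocks BMP and TGF-beta receptors and lies on chromosome 18, had 114, 129 and 126 CPM in KO PMA against 50.7, 67.1 and 51.8 CPM in untreated KO libraries. In HPg cells it had 84.2, 110.7 and 117 CPM with PMA against 48.1, 67.6 and 55.4 CPM without. All PMA libraries of a line were above all its untreated libraries. Within pairs the PMA level was 1.91 to 2.44 times the untreated level in KO and 1.64 to 2.12 times in HPg cells. The log2 fold change was 1.12 in KO (SE 0.17, edgeR adjusted p = 0.00228) and 0.87 in HPg cells (SE 0.17, adjusted p = 0.0140). The KO call held under all 24 other settings. In HPg cells the call was lost in 5 of 24, namely a fit of the compared groups alone (adjusted p = 0.0647) and the fits without HPg library 1 (0.0547), HPg library 3 (0.0687), HPg PMA library 2 (0.0568) or HPg PMA library 3 (0.0587).

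Smad6, which acts mainly on the BMP branch and lies on chromosome 9, was lower with PMA in every pair but did not pass the unpaired test. It had 77.3, 115 and 65.1 CPM in KO PMA against 110, 228 and 125 CPM in untreated KO libraries. In HPg cells it had 68.0, 114 and 76.4 CPM with PMA against 95.8, 246 and 138 CPM without. The groups overlapped in both lines through library 2 of the PMA group, which stood above untreated library 1. Within pairs the PMA level was 0.503 to 0.703 times the untreated level in KO and 0.461 to 0.711 times in HPg cells. Unpaired log2 fold changes were -0.85 in KO (SE 0.37, edgeR adjusted p = 0.276) and -0.90 in HPg cells (SE 0.37, adjusted p = 0.228). With the replicate number as a block Smad6 was called lower in both lines, at -0.80 (SE 0.13, adjusted p = 0.00116) in KO and -0.83 (SE 0.13, adjusted p = 0.00107) in HPg cells. Of the 24 other settings, the block among them, 3 called it lower in KO and 2 in HPg cells. Between the lines Smad6 was close to equal, with a log2 fold change of KO against HPg of 0.00 with PMA and -0.05 without it.

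Among the ID genes, Id1 was called higher with PMA in KO cells. Id1, on chromosome 2, had 144, 184 and 113 CPM in KO PMA against 58.9, 82.4 and 53.2 CPM in untreated KO libraries. In HPg cells it had 102, 228 and 129 CPM with PMA against 66.0, 103 and 70.3 CPM without. The KO groups did not overlap, and the HPg groups overlapped only because untreated library 2 stood just above PMA library 1. Within pairs the PMA level was 2.13 to 2.45 times the untreated level in KO and 1.54 to 2.22 times in HPg cells. The log2 fold change was 1.18 in KO (SE 0.30, edgeR adjusted p = 0.0428) and 0.94 in HPg cells (SE 0.29, adjusted p = 0.110). The HPg value was 0.90 (SE 0.13) with adjusted p = 0.00048 when the replicate number was a block, and DESeq2 gave adjusted p = 0.0311.

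The KO call of Id1 lay near the threshold and held in 13 of 24 other settings. It was lost with scaling by library size only (adjusted p = 0.0692), without a filter on low counts (0.0803) and with the trend of GC content and length removed (0.147). It was also lost when any of the 3 KO or 3 KO PMA libraries was left out (0.0543 to 0.187), and without HPg library 3 (0.0629) or HPg PMA library 3 (0.0549). All 24 settings kept a higher level with PMA, with log2 fold changes of 0.99 to 1.4.

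Id2 and Id3 were not called in any comparison. Id2, on chromosome 12, had 47.2, 48.4 and 30.9 CPM in KO PMA, 34.5, 40.3 and 29.0 CPM in KO, 39.7, 52.2 and 32.1 CPM in HPg PMA and 34.2, 44.2 and 31.2 CPM in HPg cells. It was higher with PMA in all 6 pairs, but by small factors of 1.07 to 1.37 in KO and 1.03 to 1.18 in HPg cells. Id3, on chromosome 4, had 354, 277 and 227 CPM in KO PMA, 279, 240 and 229 CPM in KO, 282, 358 and 313 CPM in HPg PMA and 309, 314 and 302 CPM in HPg cells. Untreated KO libraries were all below untreated HPg libraries, with a log2 fold change of -0.30 (SE 0.17, edgeR adjusted p = 0.447). The response of Id3 to PMA was 0.992 to 1.27 times in KO pairs and 0.914 to 1.14 times in HPg pairs.

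**Figure D3:**
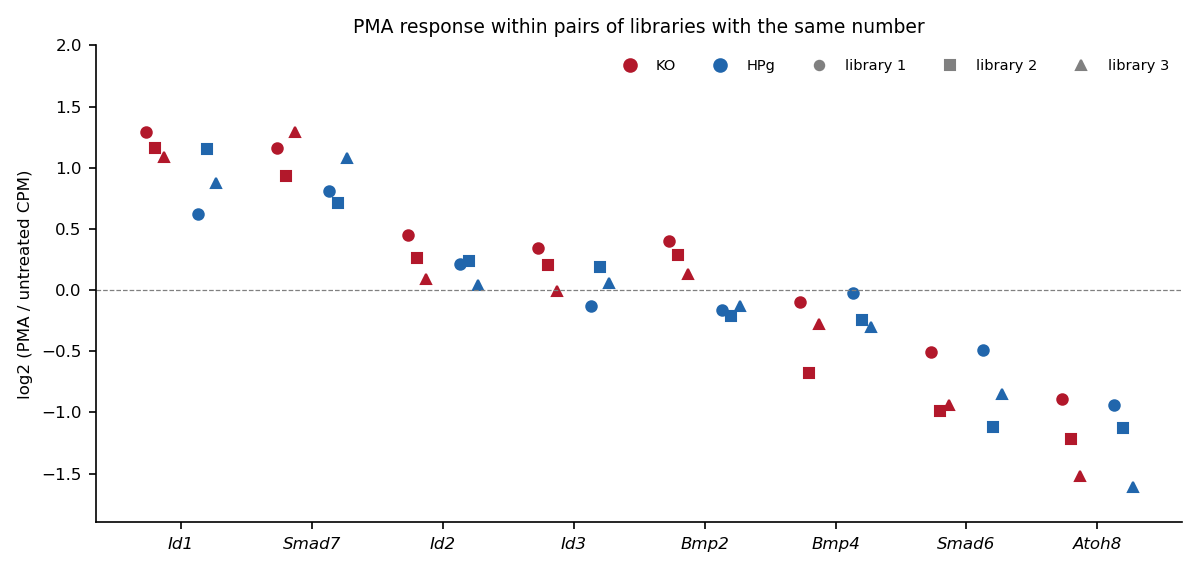
Log2 ratio of the PMA to the untreated CPM within each pair of libraries with the same number, for KO (red) and HPg (blue) cells. Bmp6, Grem1 and Nog are left out for their low counts, and Atoh8, from the wider pathway list, is added. Id1, Smad7 and Id2 lie above 0 and Smad6, Atoh8 and Bmp4 below 0 in all 6 pairs, and Bmp2 lies above 0 in the KO pairs and below 0 in the HPg pairs.

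Over the 10 genes, PMA gave 2 calls in KO cells, Smad7 and Id1, both higher, in a comparison where 4.44% of all tested genes were called. In HPg cells it gave 1, Smad7, where 3.45% were called. With the block the count was 3 in each line, Smad7 and Id1 higher and Smad6 lower, against 13.4% of all genes in KO and 14.8% in HPg cells. Libraries did not overlap for 2 of the 10 in KO cells, where 21.8% of all tested genes were apart, and for 1 of the 10 in HPg cells, where 22.7% were. The median log2 fold change over the 10 was 0.12 in KO and 0.11 in HPg cells, beside -0.02 over all genes in both lines.

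None of the 10 genes had a PMA response that was called different between the lines. The differences, KO minus HPg, ran from -0.73 for Bmp6 (SE 0.97) to 0.46 for Bmp2, with 0.25 for Smad7 (SE 0.23), 0.24 for Id1 (SE 0.41) and 0.05 for Smad6 (SE 0.52). The edgeR quasi-likelihood test called 0 of 16630 genes here, 0% of those tested, with 328 at an unadjusted p under 0.05, and DESeq2 called 1. With the replicate number as a block, 0 of 16630 genes were called as well. The standard errors above are from the fit without the block. An equal response of the lines was not shown by these tests, given the size of those errors.

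The stretches of DNA just upstream of the start site are printed for Smad6, Id2 and Id3. They are the SMAD and ID genes among the 10 for which a window was found, and none was called for PMA in the unpaired test. RefSeq windows on GRCm38.p6, from 250 bases before to 50 bases after the start, were matched for 6 of the 10 genes, namely Bmp4, Bmp6, Grem1, Smad6, Id2 and Id3, and not for Bmp2, Nog, Smad7 and Id1. The counts were made on mm9, so these windows served for sequence only. The 250 bases before the start lie at chr9:64022060-64022309 on the minus strand for Smad6, chr12:25096093-25096342 on the minus strand for Id2 and chr4:136143572-136143821 on the plus strand for Id3. They are written 5′ to 3′ along the gene, and capitals mark any of 8 motifs searched on both strands.
Smad6: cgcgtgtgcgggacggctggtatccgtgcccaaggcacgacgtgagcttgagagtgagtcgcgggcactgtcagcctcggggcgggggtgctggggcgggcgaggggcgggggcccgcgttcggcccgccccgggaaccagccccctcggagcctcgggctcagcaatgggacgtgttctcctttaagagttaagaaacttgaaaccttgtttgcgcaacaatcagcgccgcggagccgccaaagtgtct
Id2: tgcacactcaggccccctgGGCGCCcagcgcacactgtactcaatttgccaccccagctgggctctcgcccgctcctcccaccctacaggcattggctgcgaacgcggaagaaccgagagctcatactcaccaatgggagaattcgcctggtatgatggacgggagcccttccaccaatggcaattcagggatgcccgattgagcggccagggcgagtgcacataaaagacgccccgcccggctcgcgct
Id3: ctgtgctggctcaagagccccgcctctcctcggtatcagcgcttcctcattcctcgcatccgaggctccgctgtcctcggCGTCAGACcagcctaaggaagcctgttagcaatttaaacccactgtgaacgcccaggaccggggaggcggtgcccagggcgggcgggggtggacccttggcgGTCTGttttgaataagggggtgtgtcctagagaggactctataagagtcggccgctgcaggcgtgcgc

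The motifs were GGCGCC, a site bound by BMP-responsive SMADs, CAGAC, the core of the SMAD box, TGANTCA for AP-1, TGACGTCA and its shorter form CGTCA for CREB factors, GCGTGGGCG and GCGGGGGCG for EGR factors, and the CArG box of serum response factor. Of 32851 windows of the same length, 11.9% held GGCGCC, 49.6% CAGAC, 7.81% TGANTCA, 1.79% TGACGTCA, 20.8% CGTCA, 0.612% GCGTGGGCG, 2.91% GCGGGGGCG and 1.63% the CArG box. The Id2 window held GGCGCC 231 bases before the start. The Id3 window held CAGAC 167 bases before the start and, on the other strand, 68 bases before it. It also held CGTCA at 170 bases, which overlaps the first CAGAC. Grem1 held GGCGCC at 78 and CAGAC at 219 bases before and 17 bases after its start, Bmp6 held CAGAC at 119 bases before, and Smad6 and Bmp4 held none of the 8. A match is a run of letters in this window and was not tested as a site.

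The libraries numbered 2 stood apart from the others for several of these genes. In all 4 groups library 2 was the highest for Bmp4, Bmp6, Smad6, Id1 and Id2, which is 5 of the 10, and 15.4% of all tested genes had this pattern. The coefficient of variation over the 4 groups was 28.2% to 48.5% for Smad6, 23.9% to 43.3% for Id1, 6.56% to 17.3% for Smad7 and 1.98% to 22.3% for Id3. Without these 4 libraries, a setting added after the values were seen, Bmp2 was still called lower in KO, at -1.39 with PMA (edgeR adjusted p = 0.0025) and -1.82 without it (adjusted p = 0.0006365). Smad7 and Id1 were then called higher with PMA in both lines, Id1 at 0.76 (adjusted p = 0.0227) in HPg cells, and Smad6 was called lower in KO cells at -0.72 (adjusted p = 0.0403) and had -0.69 in HPg cells (adjusted p = 0.0555). What the number 2 stands for is not given in the labels.

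Over the 12 libraries, the genes whose log2 CPM followed each of these genes most closely were found among 11112 genes (11113 for Bmp6, Grem1 and Nog) with a mean of at least 1 CPM, as a description with no test. Bmp2 ran closest with Zfp365 (Pearson r 0.975), Kif5c (0.963) and Fzd9 (0.956). Smad7 ran with Sdc4 (0.986), F3 (0.984) and Map2k3 (0.978), and Id1 with Zbtb7b (0.972), Zbtb7a (0.964) and Tollip (0.958). Smad6 ran with Tmem184b (0.979), Cmtr1 (0.976) and Slc25a42 (0.976). Bmp4 was nearest to Ids (0.961), Id2 to Arpc5 (0.957) and Id3 to Lrrc57 (0.963), while Bmp6, Grem1 and Nog, at low counts, were nearest to Rgs17 (0.963), Pgm2l1 (0.908) and Pcdhb21 (0.956). The points share 2 lines, the PMA treatment and the replicate numbers, and 12 points over so many genes give high values by selection.

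The rest of the pathway was followed with a list of 64 further genes, of which 54 passed the filter on low counts. The 10 that did not pass were Bmp5, Bmp7, Bmp10, Gdf2, Gdf7, Hjv, Cer1, Sost, Sostdc1 and Sp7, with at most 28 counts in a library. Between KO and HPg cells, 0 of the 54 were higher and 1 was lower, both with and without PMA, which in each case was Hey1, where 1.29% of all tested genes were higher and 1.18% lower with PMA, and 0.806% higher and 0.511% lower without it. PMA gave 2 higher (Hes1 and Tob1) and 1 lower (Dlx5) in KO cells, and 1 higher (Hes1) and 1 lower (Rgma) in HPg cells. Over all tested genes 2.81% were higher and 1.63% lower in KO, and 2.53% higher and 0.92% lower in HPg cells. The median log2 fold change of the 54 was 0.00 between the lines in both conditions, -0.09 for PMA in KO and -0.01 for PMA in HPg cells. With the replicate block 8 were higher and 7 lower in KO than in HPg cells with PMA, where 9.49% of all genes were higher and 9.09% lower (18.6% in all), and 9 were higher and 4 lower without PMA, where 7.08% were higher and 5.44% lower. PMA with the block gave 4 higher and 5 lower in KO cells, where 6.79% of all genes were higher and 6.56% lower. In HPg cells it gave 3 higher and 4 lower, where 8.62% were higher and 6.19% lower.

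Among the 6 other BMP and GDF ligands tested, none was called without the block, and Gdf6 and Bmp3 were called with it, both picked out here after their values were seen. Gdf6 had 39.6, 75.8 and 35.5 CPM in KO PMA against 17.0, 37.9 and 12.6 CPM in HPg PMA libraries, and 36.0, 79.2 and 32.5 CPM in KO against 16.6, 36.1 and 12.1 CPM in HPg libraries. Every KO library was above the HPg library of its number, while the groups overlapped through library 2 of HPg. KO against HPg gave log2 fold changes of 1.16 with PMA (SE 0.52, edgeR adjusted p = 0.262) and 1.19 without it (SE 0.52, adjusted p = 0.322), and with the block 1.24 (adjusted p = 1.034e-05) and 1.22 (adjusted p = 1.564e-05). Bmp3 was barely detected, with 24, 52 and 28 counts in KO PMA against 0, 27 and 9 counts in HPg PMA libraries, and 20, 83 and 45 counts in KO against 2, 0 and 2 counts in HPg libraries. In CPM all its KO libraries were above all HPg libraries in both conditions. Its edgeR adjusted p was 0.303 with PMA and 0.0556 without it, and 0.0597 and 0.00493 with the block.

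**Figure D4:**
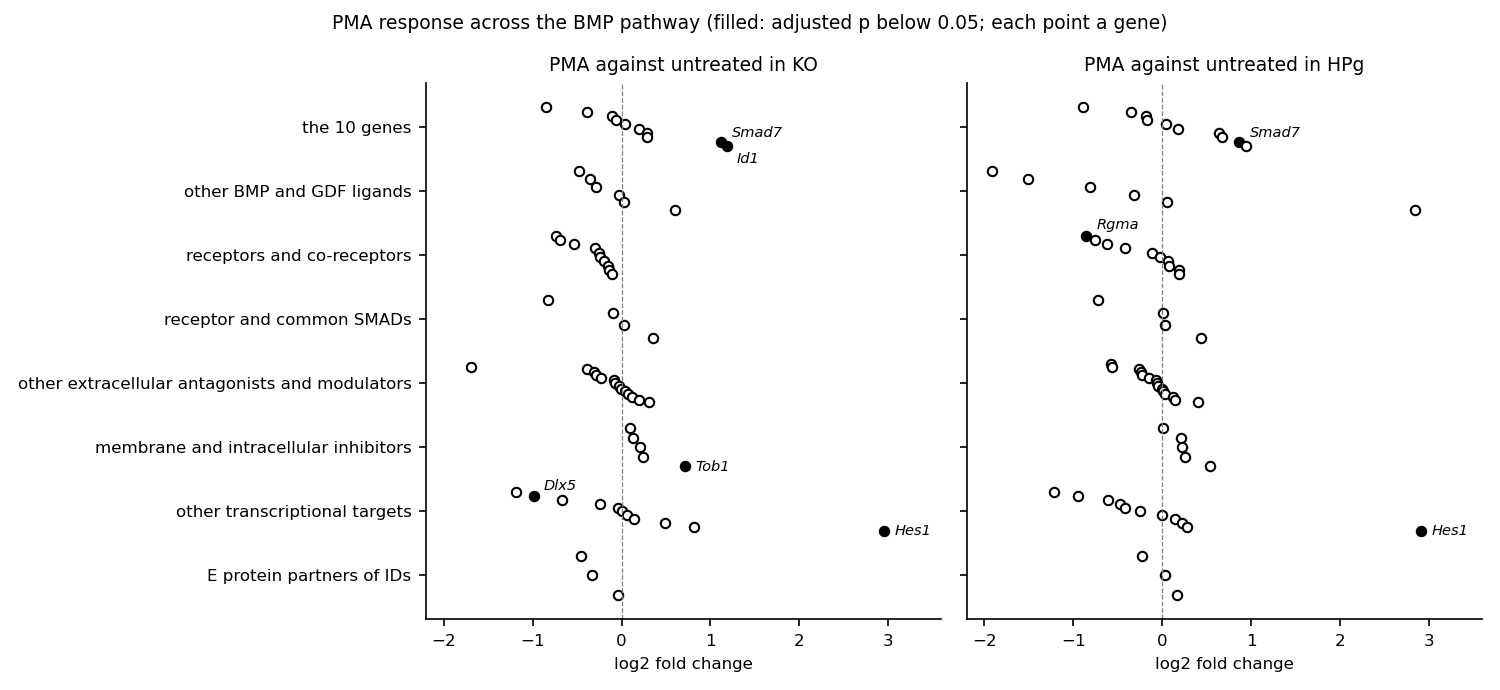
Log2 fold change of PMA against untreated cells in KO (left) and HPg (right) for the 10 genes and for the 54 tested genes of the wider pathway list, sorted by role. Filled points passed an adjusted p of 0.05 in the edgeR test and are named. Most points lie near 0, Hes1 lies near 3 in both lines, and the points far from 0 among the other ligands are genes with few counts.

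Receptors, co-receptors, receptor SMADs and SMAD4 gave 1 call without the replicate block. Their levels varied, as Acvrl1 had at most 0.421 CPM and Hjv did not pass the filter. The type I receptor gene Bmpr1a averaged 217 ± 13.5 CPM in KO PMA, 240 ± 38.4 in KO, 178 ± 27.4 in HPg PMA and 169 ± 26.2 in HPg cells (SD, n = 3 each), and the type II receptor gene Bmpr2 averaged 37.8 to 46.5 CPM over the 4 groups. Of the 10 tested receptor and co-receptor genes, only Rgma was called without the replicate block, for PMA in HPg cells. With the block, 2 of the 10 were higher in KO than in HPg cells without PMA, where 7.08% of all genes were higher. With PMA 1 was higher and 3 lower, where 9.49% of all genes were higher and 9.09% lower. For PMA against untreated cells, 2 were lower in KO and 1 in HPg cells with the block. Over all genes 6.56% were lower there in KO and 6.19% in HPg cells. Rgma encodes a membrane co-receptor for BMP ligands. It had 14.9, 17.2 and 12.4 CPM in KO PMA against 20.1, 28.2 and 23.5 CPM in KO libraries, and 12.2, 14.0 and 11.2 CPM in HPg PMA against 18.6, 27.5 and 21.5 CPM in HPg libraries. The groups did not overlap in either line. The log2 fold change was -0.69 in KO (SE 0.18, edgeR adjusted p = 0.0510) and -0.86 in HPg cells (SE 0.18, adjusted p = 0.0244), and the HPg call was lost in 6 of 24 other settings (adjusted p up to 0.104). Those were a fit of the compared groups alone, removal of chromosome medians, and the fits without HPg library 2, HPg library 3, HPg PMA library 1 or HPg PMA library 3. An exon of Rgma overlaps A730056A06Rik on the other strand.

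None of the 4 receptor and common SMAD genes was called without the replicate block. With the block, 1 of the 4 was called higher and 1 lower with PMA in each line. Over all genes 6.79% were higher and 6.56% lower in KO, and 8.62% higher and 6.19% lower in HPg cells. Smad1 had 49.6, 69.8 and 58.4 CPM in KO PMA against 38.3, 58.1 and 43.1 CPM in KO libraries, and 61.0, 81.1 and 66.6 CPM in HPg PMA against 45.2, 60.0 and 48.8 CPM in HPg libraries. All 6 pairs were higher with PMA, at 1.20 to 1.35 times the untreated level in KO and 1.35 to 1.37 times in HPg cells. Smad9 was lower with PMA in all 6 pairs, at 0.485 to 0.843 times the untreated level in KO and 0.551 to 0.811 times in HPg cells. Smad4 averaged 143 ± 6.42 CPM in KO PMA, 140 ± 3.50 in KO, 142 ± 4.19 in HPg PMA and 140 ± 5.63 in HPg cells. None of the 15 tested antagonists and modulators was called in any comparison without the block. With the block, 4 of the 15 were higher in KO than in HPg cells without PMA, where 7.08% of all genes were higher. With PMA, 4 were higher and 1 lower in KO with the block, where 9.49% of all genes were higher and 9.09% lower. Among 5 membrane and intracellular inhibitors Tob1, whose product binds SMADs and holds back BMP signals in bone, was called for PMA in KO cells. It had 37.5, 39.9 and 32.4 CPM in KO PMA against 21.5, 24.5 and 21.1 CPM in KO libraries, without overlap, a log2 fold change of 0.71 (SE 0.16, edgeR adjusted p = 0.0268). In HPg cells it was 0.54 (SE 0.16, adjusted p = 0.0955). The KO call was lost in 5 of 24 other settings (adjusted p up to 0.126), with scaling by library size only and without KO library 1 or 3 or KO PMA library 1 or 2.

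Transcriptional targets other than Id1, Id2 and Id3 held 3 of the 5 genes called in the wider list, Hes1, Hey1 and Dlx5. Id4, also in this list, was not called in any comparison without the block. It had 1.97, 2.43 and 2.13 CPM in KO PMA against 2.91, 4.75 and 4.18 CPM in HPg PMA libraries. Without PMA it had 1.86, 2.71 and 1.33 CPM in KO against 3.14, 3.79 and 3.23 CPM in HPg libraries. Its KO libraries were all below its HPg libraries in both conditions, where 25% of all tested genes were apart with PMA and 18.5% without. Hes1, a repressor best known as a Notch target and also listed as a BMP target, had 102, 137 and 94.6 CPM in KO PMA against 13.0, 20.4 and 9.68 CPM in KO libraries, and 35.5, 81.5 and 38.6 CPM in HPg PMA against 6.05, 10.2 and 4.42 CPM in HPg libraries. PMA and untreated libraries were far apart in both lines, with log2 fold changes of 2.95 in KO (SE 0.40, edgeR adjusted p = 0.00137) and 2.92 in HPg cells (SE 0.40, adjusted p = 0.00207), and both calls held in all 24 other settings. Hey1, another target of both pathways, had 1.42, 1.80 and 1.34 CPM in KO PMA against 3.40, 3.53 and 3.29 CPM in HPg PMA libraries, and 1.398, 1.67 and 1.49 CPM in KO against 5.45, 4.29 and 3.89 CPM in HPg libraries. KO libraries were all below HPg libraries. The log2 fold change of KO against HPg was -1.16 with PMA (SE 0.20, edgeR adjusted p = 0.0126) and -1.58 without it (SE 0.20, adjusted p = 0.00276). The call with PMA was lost in 4 of 24 other settings, without KO PMA library 1 or 3 or HPg PMA library 1 or 3 (adjusted p up to 0.0659), and the call without PMA in 1, the fit of these groups alone (0.0575).

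Dlx5, a homeobox gene of bone formation, had 1.31, 0.866 and 0.653 CPM in KO PMA against 1.91, 1.96 and 1.76 CPM in KO libraries, a log2 fold change of -0.99 (SE 0.25, edgeR adjusted p = 0.0445). This call held in 10 of 24 other settings, and each fit that left out 1 library lost it (adjusted p up to 0.176) except those without KO PMA library 1 or HPg library 2. It was also lost without a filter on low counts (0.0700), in a fit of the compared groups alone (0.135), with chromosome medians removed (0.0552) and without the 4 libraries numbered 2 (0.198). In HPg cells Dlx5 was not called, with 1.71, 1.7 and 1.46 CPM with PMA against 2.23, 2.61 and 2.57 CPM without. The HPg groups did not overlap, and PMA levels were 0.568 to 0.767 times the untreated levels within pairs. Between the lines, all KO libraries of Dlx5 were below all HPg libraries in both conditions. For Hes1 all KO libraries were above all HPg libraries with PMA, and the untreated groups overlapped. Neither gene was called between the lines without the block. With the block, 1 of the 11 tested targets was higher and 3 lower in KO than in HPg cells, in each condition. Over all genes 9.49% were higher and 9.09% lower with PMA, and 7.08% and 5.44% without it. Atoh8, a target of BMP signals in endothelium and liver, was chosen after its values were seen. It had 16.6, 21.3 and 10.0 CPM in KO PMA against 30.8, 49.6 and 28.8 CPM in KO libraries, and 15.2, 28.3 and 13.4 CPM in HPg PMA against 29.1, 62.1 and 40.9 CPM in HPg libraries. Library groups did not overlap in either line. Its log2 fold change was -1.19 in KO (SE 0.37, edgeR adjusted p = 0.103) and -1.21 in HPg cells (SE 0.37, adjusted p = 0.101), and with the replicate block it was called in both (adjusted p = 0.000291 in KO and 0.000228 in HPg cells).

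**Figure D5:**
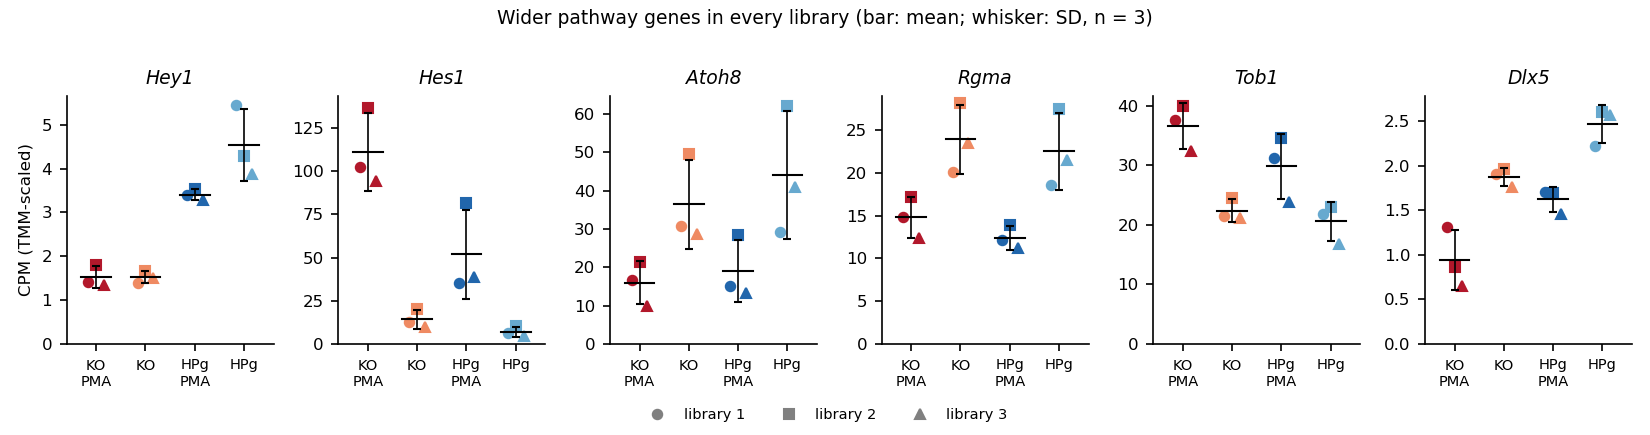
Level in every library, in TMM-scaled CPM, of 6 genes of the wider pathway list in KO PMA, KO, HPg PMA and HPg cells. Symbols mark the replicate number, the bar is the mean and the whisker the SD (n = 3). Hey1 is lower in both KO groups, Hes1 and Tob1 are higher with PMA, and Atoh8, Rgma and Dlx5 have lower values with PMA.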

How the data were processed

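Per the labels' protocols, directional libraries of ribosome-depleted total RNA were sequenced as paired ends. The authors deposited raw counts of each gene, without normalization, as whole-number values of unequal totals show. Per the submitters' processing notes, reads were processed on build mm9 with STAR 2.5.0a, cutadapt 1.11, Subread and featureCounts 1.4.6-p3. No source used here gives the strand setting or annotation release, so overlapping and antisense genes are uncertain. Symbols, chromosomes and exon lengths came from GENCODE M21 (GRCm38), of another build.

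The 12 libraries (4 groups of 3) were fitted together in R 4.3.3 with edgeR 4.0.16 and its quasi-likelihood test, robust priors, TMM factors, filterByExpr defaults (minimum count 10, minimum total 15) and Benjamini-Hochberg adjustment over 16630 genes. Genes with adjusted p below 0.05 are called. With 3 libraries against 3, an exact permutation test reaches p = 0.1 at the lowest. Bmp6 and Nog had low counts, and how far depth limits them was not tested. Replicate libraries differed by more than sampling noise in every group (chi-square per degree of freedom 111.7 to 744.2).

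Libraries with the same number pair: the correlation of their log2 CPM deviations from group means was 0.309 to 0.786 over all 18 such pairs, and -0.715 to 0.338 over the 36 others. What a number shares is not given in the labels. All 10 genes are named. Of the wider pathway list, every gene called in any of 5 comparisons is named. The lists, cell-type markers (fibroblast, cartilage and bone, endothelial, epithelial, blood and immune, muscle) and tests were chosen with earlier results of these data known. Alternatives were other scaling factors, filters on low counts, DESeq2 1.42.0, the replicate block, fits of the compared groups alone, offsets for chromosome medians or for GC content and length, and leaving out libraries.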

Additional observations from a re-analysis of the deposited data

How the results depend on the processing

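Bmp2 between the lines, Smad7 under PMA in KO cells and Hes1 under PMA in both lines were called with the same direction in all 24 alternatives. Log2 fold changes of uncalled genes changed sign between settings, always without a call, and the cause was not tested. Among them were large values of low-count genes. With 1 library left out, Nog for PMA in HPg cells ranged from -1.03 to 1.13. The difference of responses of Bmp6 then ranged from -1.20 to 0.35. Counts of called genes rested on the fit and on single libraries, and Bmp6 and Nog had 3 to 35 and 1 to 62 counts per library, where the part of depth was not tested. At least 1 CPM in 3 libraries as a filter gave no value for Bmp6, Grem1 and Nog, and the fit of the compared groups alone gives none for the difference of responses. Scaling by library size only moved the median of all genes to -0.14 for PMA in KO cells, against -0.02 with TMM factors.

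The main counts of called genes were 411 (215 higher, 196 lower) between the lines with PMA, 219 (134 higher, 85 lower) without PMA, 739 (468 higher, 271 lower) for PMA in KO, 574 (421 higher, 153 lower) for PMA in HPg and 0 for the difference of responses. With the replicate block, where numbers pair the samples, they were 3090, 2083, 2221 and 2462. With the GC content and length trend removed as well they were 3300, 2731, 2971 and 2191. The difference of responses had 0 in both of these fits. DESeq2 gave 1184, 775, 1279 and 1212, and 1 for the difference of responses. The groups compared alone gave 12 between the lines without PMA and 222 for PMA in HPg. Removing chromosome medians gave 189 (124 higher, 65 lower) with PMA and 137 without, and removing the GC trend gave 406 without PMA. Without the 4 libraries numbered 2, the counts were 1359 with PMA and 592 without. Upper-quartile factors gave 270 higher and 129 lower between the lines with PMA, and library size only gave 163 higher and 217 lower there and 307 higher and 424 lower for PMA in KO.

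Of the 10 genes, those called between the lines without PMA numbered 2 with the replicate block, with or without the GC trend removed (Bmp2 and Bmp6). Over all genes, 2731 were called with the trend removed and 2083 without its removal. Without the libraries numbered 2 they numbered 2 both with and without PMA (Bmp2 and Nog), beside 1359 and 592 over all genes. For PMA in KO the count was 1 with library size only (731 over all genes), without a filter (634) and with the GC trend removed (962). It was 4 with the block and the GC trend removed, where 2971 genes were called over all. These were Smad7 and Id1, higher, and Smad6 at -0.89 and Bmp4 at -0.40, lower. For PMA in HPg the count was 3 with the block (2462 over all genes), also with the GC trend removed (2191). It was 2 with DESeq2 (1212), 2 without the libraries numbered 2 (409) and 0 with the compared groups alone (222). The block alone made calls of Bmp6 between the lines without PMA (2.19), of Smad6 for PMA in KO (-0.80) and HPg (-0.83) and of Id1 for PMA in HPg (0.90), and changed no other call of the 10 genes.

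Signs turned as follows, in log2 fold change of KO against HPg unless named. The block gave Grem1 -0.13 and Nog 0.010 for PMA in KO. Upper-quartile factors gave Smad7 0.024 without PMA, Bmp4 0.013, Smad6 0.057 and Id1 0.0093 with PMA, Grem1 -0.0091 for PMA in KO and Id3 -0.032 for PMA in HPg. Library size only gave Smad7 0.0022 without PMA, Id2 -0.043 with PMA, Grem1 -0.11 for PMA in KO and Smad6 -0.026 for the difference of responses. The 1 CPM filter gave Smad6 0.019 with PMA. Chromosome medians removed gave Bmp4 -0.18 and Grem1 0.014 without PMA, Id1 0.099 and Id2 -0.17 with PMA, and Bmp6 0.0045 for PMA in KO. The GC trend removed gave Smad6 0.031 and Smad7 0.0012 without PMA and Smad6 -0.20 for the difference of responses. With the block as well, these were 0.023, 0.00086 and -0.22, and Grem1 was -0.078 for PMA in KO. Without the libraries numbered 2, Smad6 was 0.0091 without PMA, Bmp4 0.071 and Id1 0.16 with PMA, Nog 0.12 for PMA in KO, 0.45 for PMA in HPg and -0.32 for the difference of responses, Id3 -0.034 for PMA in HPg and Smad6 -0.029 for the difference of responses.

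Leaving out 1 library at a time gave 60 to 573 called genes between the lines with PMA, 46 to 329 without, 295 to 845 for PMA in KO, 244 to 633 for PMA in HPg and 0 to 1 for the difference of responses. Of the 10 genes it gave 1 to 2 for PMA in KO and 0 to 1 for PMA in HPg. Between the lines without PMA, Bmp4 ranged from -0.19 to 0.43, Grem1 from -0.49 to 0.13, Smad6 from -0.45 to 0.40, Smad7 from -0.16 to 0.13 and Id2 from -0.21 to 0.082. With PMA, Bmp4 ranged from -0.26 to 0.18, Smad6 from -0.27 to 0.24, Id1 from -0.29 to 0.34 and Id2 from -0.13 to 0.22. For PMA in KO, Bmp6 ranged from -0.33 to 0.26, Grem1 from -0.41 to 0.44 and Nog from -0.24 to 0.057. For PMA in HPg, Bmp2 ranged from -0.37 to 0.058, Bmp4 from -0.42 to 0.096, Bmp6 from -0.40 to 1.14, Nog from -1.03 to 1.13, Id2 from -0.018 to 0.34 and Id3 from -0.043 to 0.13. For the difference of responses, Bmp4 ranged from -0.49 to 0.13, Bmp6 from -1.20 to 0.35, Nog from -1.23 to 0.93, Smad6 from -0.41 to 0.44, Id2 from -0.055 to 0.31 and Id3 from -0.027 to 0.29.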
